A study of Mus musculus with 24 samples.

Results

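Lysosomal cathepsins, the lysosomal proton pump and the membrane glycoproteins Lamp1 and Lamp2 were followed in skeletal muscle of mice that lack nebulin. The members were all genes with a single annotated symbol made of Cts and one letter, or starting with Atp6v or Atp6ap, plus Lamp1 and Lamp2. This gave 43 of the 19938 genes with a probe set on the array: 17 cathepsins, 21 pump subunits, 3 pump accessory proteins and both Lamp genes. A gene was kept when it lay above the array's 30th percentile of all probe sets on at least 6 of the 24 arrays, which left 38 members among 15999 genes. The 5 members left out were Ctsg, Ctsj, Ctsq, Atp6v0d2 and Atp6ap1l. Nearest to this limit lay Atp6v1g3, above the percentile on 22 arrays and kept, and Atp6v0d2, above it on 1 array and left out.

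Quadriceps and soleus came from male mice aged 40 to 42 days on a mixed background of C57BL/6J and 1219S6/SvEvTac, as the labels write the strains. All animals, controls included, were homozygous for a conditional allele of Neb, the gene of the giant thin filament protein nebulin. The conditional knockout (cKO) mice also carried 1 copy of a Cre transgene under the muscle creatine kinase promoter (MCK-Cre), which the controls lacked, so Cre was directed to muscle fibres and not to the other cells of the tissue. Both muscles were taken from both genotypes, with 6 arrays in each of the 4 groups, which the submitters call biological replicates. They report a marked loss of quadriceps mass in cKO mice and no significant loss in soleus. Whether quadriceps and soleus of 1 number came from the same mouse is not given in the labels.

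Lysosomes break down proteins, sugars and lipids delivered by endocytosis and autophagy. Their interior is kept acid by the vacuolar proton pump, in which a cytosolic V1 part splits ATP and a membrane part, V0, moves protons, and both parts must join for the pump to work. Most cathepsins are proteases that need this acidity, and in muscle the lysosome clears worn organelles, while macrophages, which enter injured muscle, hold many lysosomes of their own.

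Values are log2 intensities after the authors' RMA processing, and a change is the difference of 2 group means on that scale. Changes were tested with limma in 1 model of the 4 groups over all 24 arrays, with p-values adjusted by the Benjamini-Hochberg method over 15999 genes and called when the adjusted p was under 0.05. Neb itself was lower in the cKO of both muscles, by a log2 change of -1.45 in quadriceps (adjusted p = 1.40e-10) and -1.14 in soleus (adjusted p = 2.27e-08). Slow fibre genes separated the muscles: 7 of 7, Myh7 and Tnnt1 among them, were higher in control soleus than in control quadriceps, next to 15.2% of all genes. Of 8 fast fibre genes 7, Myh4 and Pvalb among them, were lower, next to 18.3%. Limma's array weights ran from 0.207, for quadriceps control 4, to 1.77, and that array was the lowest of its group for several members named below. Since the tissue was measured in bulk, fewer cells of a type and less RNA per cell cannot be told apart.

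In cKO quadriceps, cathepsins S, Z and K rose, as did the pump subunits Atp6v0e and Atp6v1a, the accessory protein Atp6ap2 and Lamp2, while the pump subunit Atp6v1g1 fell. The abundant general proteases of the lysosome, Ctsd, Ctsb and Ctsl, were not called in either muscle. Of the 38 members tested, 11 were higher in cKO quadriceps, next to 22.3% of all genes, and 3 were lower, next to 17.7%. In cKO soleus 7 were higher, next to 13.2% of all genes, and 0 were lower by limma, next to 9.94%, with 1 lower at an unadjusted p under 0.05. In either direction 14 members were called in quadriceps, next to 40.0% of all genes, and 7 in soleus, next to 23.1%. Ctss, Ctsz, Atp6v0e and Atp6v1c1 were higher in both muscles, which makes 4 of 38, next to 8.44% of all genes. In either direction the members' shares, 36.8% and 18.4%, were near those of all genes, while the share lower in quadriceps, 7.89%, was under that of all genes. The median change of the members was 0.03 in quadriceps and 0.05 in soleus, against -0.01 and -0.02 over all genes. The share of called genes that were higher depended on the scaling. In quadriceps it was 55.7% as deposited and 37.5% with each array centred on its 75th percentile, and in soleus 57% as deposited and 66.9% with each array centred on its median.

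**Figure D1:**
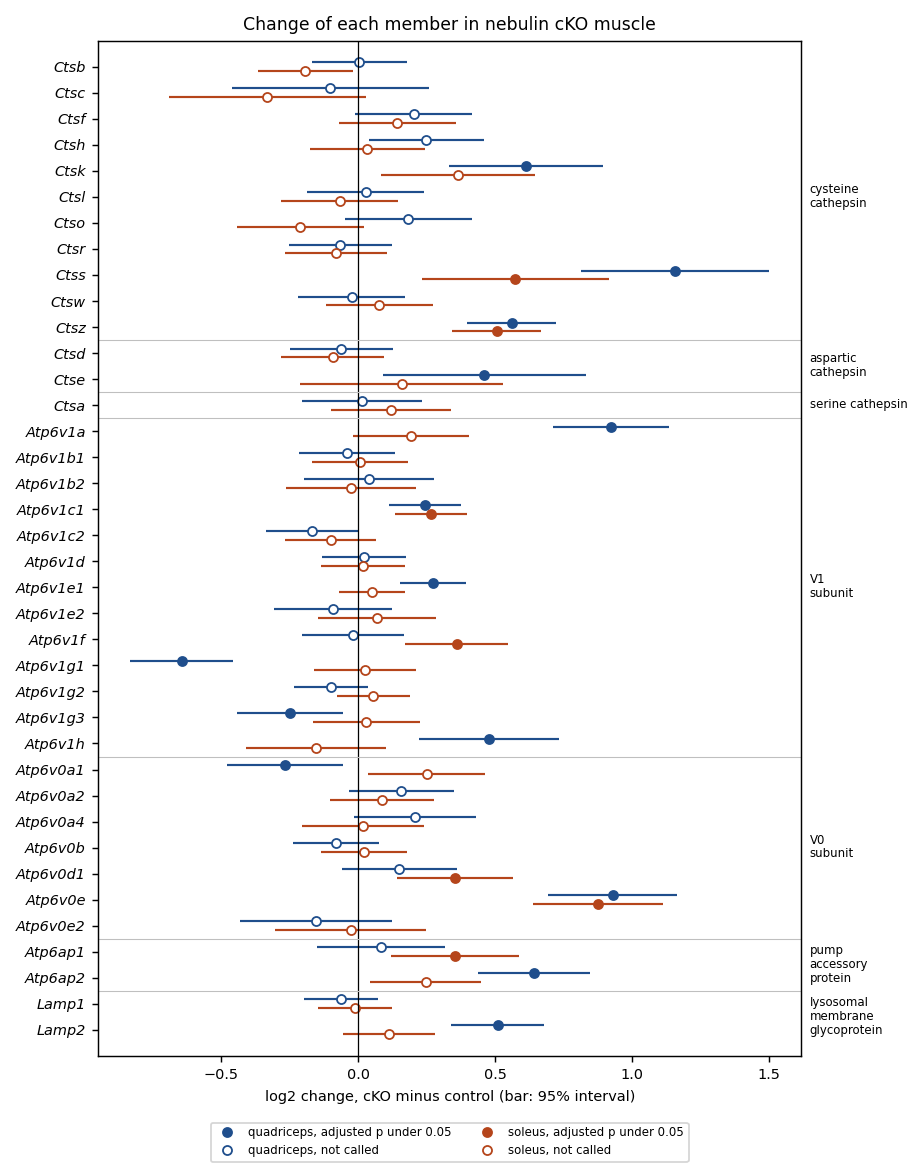
Log2 change of each of the 38 members between cKO and control in quadriceps (blue) and soleus (rust), with the 95% interval as a bar, filled where limma's adjusted p was under 0.05 and open where it was not. Ctss, Atp6v0e and Atp6v1a lie farthest to the right in quadriceps and Atp6v1g1 farthest to the left, while Ctsb, Ctsd, Ctsl and Lamp1 have intervals that include 0 in quadriceps.

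Among the cysteine cathepsins the largest change was in Ctss, cathepsin S, a protease of macrophages and other antigen-presenting cells that stays active outside acid compartments (Entrez gene 13040, chromosome 3 of GRCm38.p6, positions 95526786 to 95556405). Its log2 intensity was lowest at 6.16, with median 6.45 and highest at 7.02, in quadriceps controls and 7.25, 7.66 and 8.20 in cKO. All 6 cKO arrays lay above all 6 controls, as they did for 8 of the 38 members, next to 10.1% of all genes. The rise was 2.23-fold (log2 change 1.16, SE 0.17, limma adjusted p = 4.02e-06). Within soleus the controls had 5.86, 6.49 and 6.86 and the cKO arrays 6.71, 7.12 and 7.29. Here the groups overlapped, with 2 cKO arrays under the highest control, and the rise was 1.49-fold (log2 change 0.57, SE 0.17, limma adjusted p = 0.0122).

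Ctsz, cathepsin Z, is a carboxypeptidase that trims single residues from the ends of proteins (chromosome 2, 174427494 to 174439039). In quadriceps its lowest, median and highest values were 7.55, 7.60 and 7.95 in controls and 8.05, 8.26 and 8.37 in cKO. In soleus they were 7.30, 7.39 and 7.57 in controls and 7.77, 7.90 and 8.07 in cKO. The groups did not overlap in either muscle. Ctsz rose by nearly the same amount in both, by 0.56 in quadriceps (SE 0.08, limma adjusted p = 2.99e-06) and 0.51 in soleus (SE 0.08, adjusted p = 2.40e-05), and the difference of these changes was 0.05 (SE 0.11, adjusted p = 0.8).

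Ctsk, cathepsin K, is the collagen-splitting protease of osteoclasts that fibroblasts also make (chromosome 3, 95499210 to 95509387). It ranged from 5.66 to 6.67 with median 6.21 in quadriceps controls and from 6.39 to 7.03 with median 6.79 in cKO. Although the ranges overlapped, it rose 1.53-fold (log2 change 0.61, SE 0.14, limma adjusted p = 0.000848). Within soleus the change was 0.36 (SE 0.14, adjusted p = 0.0551), which missed the threshold. It passed there without quadriceps control 1, 3 or 6, quadriceps cKO 6, soleus control 3 or soleus cKO 3, 4 or 6 (adjusted p = 0.0331 to 0.0498), and with the soleus arrays fitted alone (0.0156). Array weights (0.0196) and median centring (0.0431) gave a call as well. Of 5 osteoclast markers none was higher in either muscle by limma, also at an unadjusted p under 0.05. Mmp9 among them fell in quadriceps (-0.62, limma adjusted p = 0.000315). Another, Calcr, is also counted as a satellite cell marker below. Oscar had group means of 3.91 to 4.26, near the dim limit of 3.51 to 3.72, and Dcstamp was dropped as dim. Of 7 fibro-adipogenic progenitor markers 5 were higher and 1 lower in quadriceps, next to 22.3% and 17.7% of all genes. In soleus 4 were higher, next to 13.2%, with Mfap5 at 1.39 in quadriceps and 1.60 in soleus and Lum at 0.80 and 0.90. The part of either cell type in the rise of Ctsk was not tested.

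Macrophage markers moved with these cathepsins. Of 20 markers 16 were higher in cKO quadriceps (median 0.67), next to 22.3% of all genes, and 13 in cKO soleus (median 0.52), next to 13.2%. The largest changes were those of Lgals3 (1.81) and Mpeg1 (1.62) in quadriceps and Cd68 (2.10) in soleus. None was lower in either muscle, also at an unadjusted p under 0.05. Their summed linear intensity lay between 1358 and 2193 in quadriceps controls and between 2508 and 2978 in cKO, and between 1280 and 1621 in soleus controls and 1701 and 2500 in cKO. None of the 20 was dropped as dim, although Aif1 lay close to the limit. Their part in the rise of Ctss, Ctsz and Ctsk was not tested. Of 8 neutrophil markers S100a8, Ly6g and Ngp were dropped as dim, as was Ctsg, the neutrophil serine protease, at most 3.47 on any array. The lymphocyte and NK cell markers Cd3g, Gzma, Gzmb and Ncr1 were dropped as dim too. Of 5 neutrophil and 5 lymphocyte and NK cell markers kept, none was higher in either muscle, also at an unadjusted p under 0.05. Their group means were low, from 3.52 to 5.01, next to a dim limit of 3.51 to 3.72, so a small rise could go unseen. The neutrophil protease Prtn3 fell in quadriceps (-0.36), from a mean of 4.27 to 3.91, which is also near that limit. Ctsw, a cathepsin of cytotoxic lymphocytes, stayed between 3.86 and 4.52 on all arrays (change -0.02 in quadriceps and 0.08 in soleus).

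Satellite cell markers rose as well, 5 of 6 in quadriceps (median 0.54), next to 22.3% of all genes, and 2 of 6 in soleus (median 0.23), next to 13.2%. Myod1 among them stood at 1.06 and 0.71. Adipocyte markers rose in 3 of 5 in quadriceps (Cidec at 1.26) and in none of 5 in soleus, next to the same shares. In soleus 1 of these was higher at an unadjusted p under 0.05. Endothelial markers were lower in 5 of 7 in soleus (median -0.37, Kdr at -1.17), next to 9.94% of all genes. In quadriceps none of 7 was lower by limma, next to 17.7%, and 1 was lower at an unadjusted p under 0.05. Whether these shifts bear on the members was not tested.

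**Figure D2:**
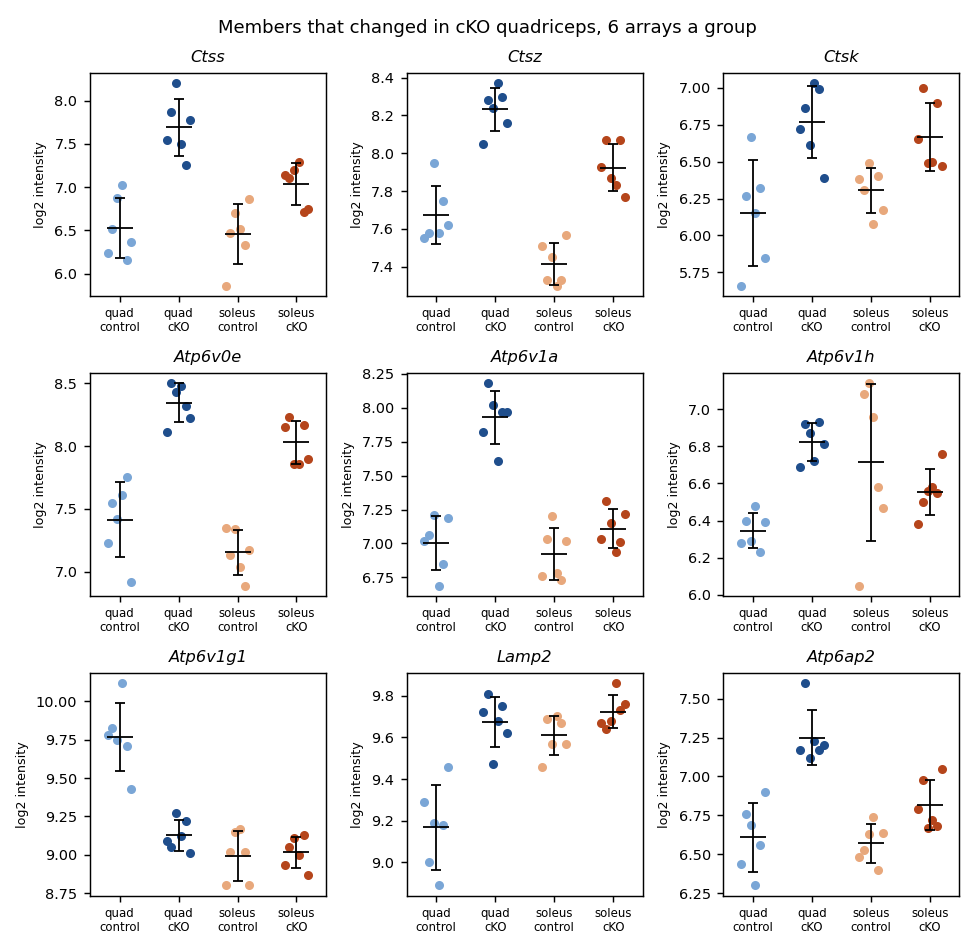
Log2 intensity on every array (points), with group mean and SD (black bars), for 9 members that changed in cKO quadriceps. The cKO quadriceps arrays lie wholly above their controls for all of these except Ctsk, whose ranges overlap, and Atp6v1g1, which lies wholly below.

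The cathepsins that carry most general lysosomal proteolysis showed no called change in either muscle. Ctsd, the aspartic protease cathepsin D, had a change of -0.06 in quadriceps (95% interval -0.25 to 0.13) and -0.09 in soleus (-0.28 to 0.09). For Ctsb, cathepsin B, these were 0.00 (-0.17 to 0.18) and -0.19 (-0.37 to -0.02, limma adjusted p = 0.102). The lower value of Ctsb in soleus passed the threshold without quadriceps control 4 (adjusted p = 0.0475), with arrays centred on the 75th percentile (0.0337) and after quantile normalization (0.0127). Ctsl, cathepsin L, gave 0.03 (-0.19 to 0.24) and -0.07 (-0.28 to 0.15). Ctsa, a serine carboxypeptidase that shields other lysosomal enzymes, gave 0.01 (-0.21 to 0.23) and 0.12 (-0.10 to 0.34). These intervals leave room for shifts of up to about the size of their bounds, which are smaller than the rise of Ctss.

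Ctsc, the dipeptidyl peptidase that activates serine proteases of immune granules, was not called either, with -0.10 in quadriceps (-0.46 to 0.26) and -0.33 in soleus (-0.69 to 0.03). Without soleus control 1 the soleus value was -0.49 with adjusted p = 0.0219. The remaining cysteine cathepsins Ctsf, Ctsh and Ctso lay between 0.18 and 0.25 in quadriceps, and at 0.14, 0.03 and -0.21 in soleus. Of these, Ctsh was closest to the threshold (adjusted p = 0.0539) and passed it without quadriceps control 3, quadriceps cKO 3, soleus control 1 or 4, or soleus cKO 3 or 4 (0.0148 to 0.0483). Ctse, an aspartic cathepsin found mainly in stomach lining and immune cells, was called higher in quadriceps (log2 change 0.46, SE 0.18, adjusted p = 0.0426), with controls from 4.49 to 5.07 and cKO arrays from 4.39 to 5.99. The ranges overlapped widely, and the call was lost without quadriceps control 1, 2 or 6 or cKO 1, 2, 3, 4 or 6 (0.0518 to 0.129). It was also lost with array weights (0.0812), the 75th percentile (0.0997), quantile normalization (0.0579), an intensity trend with robust prior (0.0510) and quadriceps arrays alone (0.0723). Ctsr, a cathepsin known from placenta, stayed between 3.84 and 4.54 and was not called in either muscle (-0.07 and -0.08). In all, 4 of 14 cathepsins were higher in quadriceps, next to 22.3% of all genes, and 2 in soleus, next to 13.2%. None was lower by limma, next to 17.7% of all genes in quadriceps and 9.94% in soleus. At an unadjusted p under 0.05, 0 were lower in quadriceps and 1, Ctsb, in soleus.

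**Figure D3:**
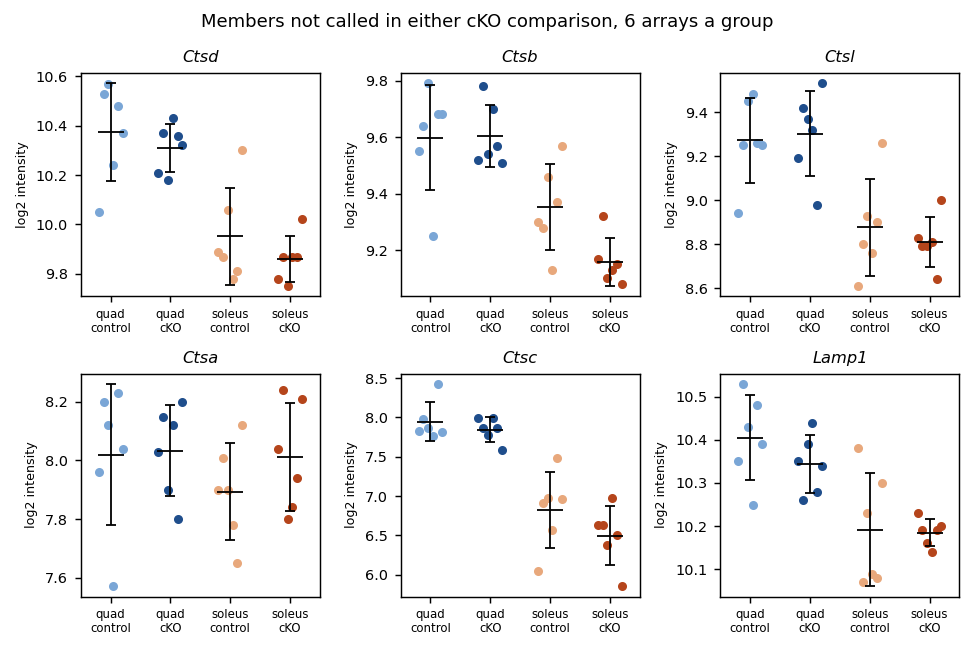
Log2 intensity on every array (points), with group mean and SD (black bars), for 6 members not called in cKO quadriceps or cKO soleus. The cKO and control ranges overlap within each muscle, and the Ctsc values of soleus lie below those of quadriceps, between 5.85 and 7.48 against 7.58 to 8.43.

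Subunits of the proton pump were called in both directions in quadriceps. Of 20 subunits kept, 5 rose and 3 fell there (median 0.00), close to the shares of all genes, 22.3% and 17.7%, and 4 rose in soleus (median 0.04), next to 13.2%, where none fell by limma, also at an unadjusted p under 0.05. In the V1 part, Atp6v1a encodes the catalytic subunit that splits ATP (Entrez gene 11964, chromosome 16, 44085402 to 44139702). It ran from 6.69 to 7.21 with median 7.04 in quadriceps controls and from 7.61 to 8.18 with median 7.97 in cKO. The groups lay well apart, and Atp6v1a rose 1.90-fold (log2 change 0.92, SE 0.10, limma adjusted p = 7.68e-08). Within soleus, controls from 6.73 to 7.20 and cKO arrays from 6.94 to 7.31 overlapped, and the change was 0.19 (SE 0.10, adjusted p = 0.196), which passed with replicate number as a fixed block (0.0430).

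Atp6v1b2, which encodes the other subunit of the catalytic ring in most tissues, did not follow: its change was 0.04 in quadriceps (95% interval -0.20 to 0.28) and -0.03 in soleus (-0.26 to 0.21). Its quadriceps controls were spread from 8.09, on control 4, to 9.25, on control 2, around cKO arrays of 8.73 to 8.89. The kidney form of that subunit, Atp6v1b1, stayed between 3.93 and 4.51, near the dim limit, which lay between 3.51 and 3.72 over the arrays.

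Atp6v1g1 encodes the common form of the G subunit, part of the stalks that hold V1 to V0 (chromosome 4, 63544765 to 63550701). Its values were 9.43, 9.77 and 10.12 (lowest, median, highest) in quadriceps controls and 9.01, 9.10 and 9.27 in cKO. Every cKO array was below every control, which held for 1 of 38 members, next to 6.06% of all genes. The fall was 1.56-fold (log2 change -0.65, SE 0.09, limma adjusted p = 2.88e-06). Within soleus, controls ran from 8.80 to 9.17 and cKO arrays from 8.87 to 9.13, with a change of 0.02 (SE 0.09, adjusted p = 0.887). A second probe set of the gene gave -0.68 in quadriceps and 0.04 in soleus. The neuronal form Atp6v1g2 had a change of -0.10 in quadriceps (adjusted p = 0.229) and passed there with arrays centred on the 75th percentile (-0.18, 0.0368) and after quantile normalization (-0.17, 0.0457). The kidney form Atp6v1g3 was called lower in quadriceps (-0.25, SE 0.09, adjusted p = 0.0379), with values of 3.41 to 4.20 that reach the dim limit. Its call was lost without quadriceps control 1, 2, 3, 4 or 5 or cKO 4 or 6 (0.0511 to 0.109), after quantile normalization (0.0540) and with quadriceps arrays alone (0.104).

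Of the other V1 subunits, Atp6v1h, a regulatory subunit, ran from 6.23 to 6.48 in quadriceps controls and from 6.69 to 6.93 in cKO. It rose by 0.48 without overlap (SE 0.13, limma adjusted p = 0.00352). Within soleus its controls were spread from 6.05 to 7.14, more than its cKO arrays (6.38 to 6.76). The change there was -0.15 (SE 0.13, adjusted p = 0.419), and without soleus control 1, the lowest array, -0.29 with adjusted p = 0.0367. With array weights it was -0.31 (0.0208). Atp6v1e1, the common E stalk subunit, ran from 9.13 to 9.25 in quadriceps controls and from 9.32 to 9.56 in cKO, a rise of 0.27 without overlap (SE 0.06, adjusted p = 0.000623). Atp6v1c1, the subunit that links the stalks to V0, rose in both muscles by similar amounts, 0.24 in quadriceps (SE 0.06, adjusted p = 0.00323) and 0.27 in soleus (SE 0.06, adjusted p = 0.00257). Its soleus controls lay within 6.97 to 7.05, all below the cKO arrays, which began at 7.19.

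Atp6v1f, a subunit of the rotor's centre, was called in soleus alone, with 0.36 there (SE 0.09, limma adjusted p = 0.00431) and -0.02 in quadriceps (adjusted p = 0.88). Its soleus controls were 7.59 to 7.63 on 5 arrays and 8.08 on control 1, next to cKO arrays of 7.92 to 8.17. The difference between the muscles missed the threshold (adjusted p = 0.0527) and passed without quadriceps control 2 or 6, soleus control 1 or soleus cKO 4 (0.00642 to 0.0476). It also passed with array weights (0.00555), median centring (0.0309), the 75th percentile (0.0452) and the mean of all probe sets (0.0344). Atp6v1d, also of the central rotor, had changes of 0.02 in both muscles (95% intervals -0.13 to 0.17 in each). Neither of the tissue-restricted forms Atp6v1c2 and Atp6v1e2 was called. Atp6v1c2, at -0.17 in quadriceps, passed without quadriceps control 6 (adjusted p = 0.0332) and with arrays centred on the 75th percentile (-0.25, 0.0311).

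In the V0 part, Atp6v0e, a small subunit of the membrane domain, rose most (Entrez gene 11974, chromosome 17, 26676396 to 26699647). Its lowest, median and highest values were 6.92, 7.48 and 7.75 in quadriceps controls and 8.11, 8.38 and 8.50 in cKO. In soleus they were 6.89, 7.15 and 7.35 in controls and 7.86, 8.02 and 8.23 in cKO. Neither muscle showed overlap. Atp6v0e rose 1.90-fold in quadriceps (log2 change 0.93, SE 0.115, limma adjusted p = 3.82e-07) and 1.83-fold in soleus (0.88, SE 0.115, adjusted p = 1.93e-06). Its paralogue Atp6v0e2 did not rise, with -0.15 in quadriceps (adjusted p = 0.373) and -0.03 in soleus (adjusted p = 0.914). Without quadriceps control 4, the lowest array at 6.95, the quadriceps change of Atp6v0e2 was -0.29 with adjusted p = 0.0439.

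Atp6v0d1, the subunit that couples the rotor to the membrane ring, rose in soleus (log2 change 0.35, SE 0.10, limma adjusted p = 0.012), with controls from 7.42 to 8.04 and cKO arrays from 7.95 to 8.19. In quadriceps its change was 0.15 (adjusted p = 0.244). The osteoclast and macrophage form of this subunit, Atp6v0d2, was dim and not tested. In quadriceps its cKO arrays, from 3.32 to 3.93, lay above all controls, from 2.82 to 3.26, but only 1 of all 24 arrays passed the dim limit. Atp6v0a1, the form of the large V0 subunit best known from neurons, was called lower in quadriceps (-0.27, SE 0.10, adjusted p = 0.0406). There the controls were spread from 8.46, on control 4, to 9.34, and the call was lost without quadriceps control 1, 3, 5 or 6 or cKO 1, 2, 3 or 5 (0.0544 to 0.113), with median centring (0.0598) and with quadriceps arrays fitted alone (0.111).

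In soleus all 6 cKO arrays of Atp6v0a1, from 8.76 to 9.07, lay above all 6 controls, from 8.47 to 8.68. Such separation held for 4 members in soleus, next to 7.82% of all genes, the others being Ctsz, Atp6v0e and Atp6v1c1, and the opposite separation held for 0 members, next to 4.96%. The soleus change of Atp6v0a1 was 0.25 (SE 0.10, limma adjusted p = 0.0826), and it passed without quadriceps control 4 (0.0106), with array weights (0.0157) and with the soleus arrays fitted alone (0.0125). Atp6v0a2 had changes of 0.16 in quadriceps (adjusted p = 0.176) and 0.09 in soleus (0.551), with a second probe set at -0.15 in both, so the probe sets disagreed in sign. Atp6v0a4, known from kidney, gave 0.21 (0.13) and 0.02 (0.928), and Atp6v0b, of the proton-carrying ring, gave -0.08 (0.412) and 0.02 (0.876). The main ring subunit Atp6v0c was not analysed here.

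Each accessory protein kept was called in 1 muscle, and for neither did the difference between the muscles pass (limma adjusted p = 0.0636 for Atp6ap2 and 0.295 for Atp6ap1). Atp6ap2, also known as the prorenin receptor, helps assemble the pump (chromosome X, 12587759 to 12617051). It ran from 6.30 to 6.90 with median 6.63 in quadriceps controls and from 7.12 to 7.60 with median 7.19 in cKO. It rose 1.56-fold without overlap (log2 change 0.64, SE 0.10, limma adjusted p = 1.06e-05), and in soleus by 0.25 with adjusted p = 0.0742, which became 0.0479 without quadriceps control 4, 0.0390 with soleus arrays alone and 0.0410 with replicate number as a fixed block. Atp6ap1, which binds V0, rose in soleus (0.35, SE 0.11, adjusted p = 0.0239) and showed 0.08 in quadriceps (adjusted p = 0.58). Its quadriceps controls lay between 9.43 and 9.53 on 5 arrays and at 8.70 on control 4. The soleus call was lost without soleus control 2, 4 or 5 or soleus cKO 5 or 6 (0.0525 to 0.0641) and after quantile normalization (0.0527).

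The Lamp proteins coat the inner face of the lysosomal membrane, and Lamp2 is also needed for autophagosome fusion and for uptake of single proteins. Lamp2 (chromosome X, 38399647 to 38456460) had values of 8.89, 9.18 and 9.46 in quadriceps controls and 9.47, 9.70 and 9.81 in cKO. The ranges nearly touched but did not overlap, and Lamp2 rose 1.42-fold (log2 change 0.51, SE 0.08, limma adjusted p = 1.83e-05). Within soleus the controls already stood at 9.46 to 9.70, next to cKO arrays of 9.64 to 9.86, and the change was 0.11 (SE 0.08, adjusted p = 0.361). Lamp1, the most abundant lysosomal membrane protein in many cells, changed by -0.06 in quadriceps (95% interval -0.20 to 0.07) and -0.01 in soleus (-0.15 to 0.12).

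Whether a change differed between the muscles was tested directly as quadriceps change minus soleus change. Of 38 members 3 had a higher change in quadriceps, next to 7.39% of all genes, and 2 a lower one, next to 4.89%, so 5 were called in all, next to 12.3%. The higher ones were Atp6v1a (difference 0.73, SE 0.15, limma adjusted p = 0.00155), Atp6v1h (0.63, SE 0.18, adjusted p = 0.019) and Lamp2 (0.40, SE 0.12, adjusted p = 0.0243). Lamp2 lost its call with arrays centred on their median (0.35, 0.0713). The lower ones were Atp6v1g1 (-0.67, SE 0.13, adjusted p = 0.00107) and Atp6v0a1 (-0.52, SE 0.15, adjusted p = 0.0199). Ctss, with 1.16 against 0.57, did not pass (difference 0.58, SE 0.24, adjusted p = 0.104), but did without soleus control 1 (0.0305).

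Quadriceps and soleus arrays of 1 genotype and number deviated together, and with this pairing as a random block the counts became 6 higher and 3 lower. Over all genes the calls for the difference also grew with this block, from 1966 to 2952. The block also joined quadriceps and soleus of cKO 4, whose ages differ in the labels. In that blocked fit Ctss (adjusted p = 0.0489), Atp6ap2 (0.0286) and Atp6v1e1 (0.0396) joined those higher and Atp6v1f (0.0281) those lower, in soleus Ctsk passed (0.0496), and between control muscles Ctsr passed as higher in soleus (0.0441). With number as a fixed term the differences of Ctss (0.0319) and Atp6ap2 (0.0335) and the soleus changes of Ctsk (0.0253), Atp6ap2 (0.0410) and Atp6v1a (0.0430) passed. Without the block, Atp6ap2 (adjusted p = 0.0636) passed without quadriceps control 6 or soleus cKO 6 (0.021 and 0.0428), Atp6ap1 without quadriceps control 4 (0.0211) and Atp6v1g3 without quadriceps control 6 (0.0213). With array weights the differences of Ctss (0.0322), Atp6ap2 (0.0283) and Atp6v1e1 (0.0359) passed as higher. Those of Atp6ap1 (0.0189), Atp6v1f (0.00555) and Atp6v1g3 (0.0444) passed as lower. Atp6v1e1 also passed after quantile normalization (0.0163).

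Control soleus and control quadriceps were compared to see how the lysosomal genes stand in slow and fast muscle without Cre. Of 38 members 13 were lower in soleus, next to 18.3% of all genes, and 3 were higher, next to 15.2%, so 16 were called in all, next to 33.5%. The median difference of the members was -0.12, against 0.03 over all genes. With arrays centred on their median these were -0.22 and -0.07, and after quantile normalization -0.10 and -0.01. The share of called genes higher in soleus was 45.4% as deposited, 22.3% with median centring and 56.2% with the 75th percentile.

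Ctsc differed most between the muscles. Quadriceps controls ran from 7.76 to 8.43 with median 7.85, and soleus controls from 6.04 to 7.48 with median 6.94. Every soleus array was below every quadriceps array, as for 3 of 38 members, next to 7.73% of all genes, and the level was 2.18-fold lower in soleus (log2 difference -1.12, SE 0.18, limma adjusted p = 1.63e-05). Ctsd (-0.42, SE 0.09, adjusted p = 0.000756), Ctsl (-0.40, SE 0.10, adjusted p = 0.00418), Ctsz (-0.26, SE 0.08, adjusted p = 0.0136) and Ctsb (-0.25, SE 0.08, adjusted p = 0.0244) were lower in soleus too. In all 5 of 14 cathepsins were lower, next to 18.3% of all genes, and none higher, next to 15.2%. At an unadjusted p under 0.05, 1 was higher. The calls of Ctsb and Ctsz were lost under some alternatives, given below. Ctss (-0.07, 95% interval -0.42 to 0.27) and Ctsk (0.15, -0.13 to 0.43) were not called.

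Of the pump, Atp6v1g1 was 1.72-fold lower in soleus (log2 difference -0.78, SE 0.09, limma adjusted p = 2.03e-07), and Atp6v1e1 was 1.24-fold lower (-0.31, SE 0.06, adjusted p = 0.000222), both without overlap. Atp6ap1 (-0.50), Atp6v0a1 (-0.45) and Atp6v1f (-0.44) were lower in soleus as well, as were, by less, Atp6v0b (-0.24), Atp6v1d (-0.21) and Lamp1 (-0.21). Lamp2 was 1.36-fold higher in soleus (0.44, SE 0.08, adjusted p = 0.000134), with the groups meeting at 9.46 but not overlapping, and so was Atp6v0a4 (1.37-fold, 0.46, SE 0.11, adjusted p = 0.00183), which makes 2 of 38, next to 3.94% of all genes. Atp6v1h was higher by 0.37 (adjusted p = 0.0254). Of these calls, Atp6v1d was lost without quadriceps control 6 or soleus control 1, 2, 3 or 5 (adjusted p = 0.0503 to 0.0685), after quantile normalization (-0.11, 0.256), and with the 75th percentile (0.0654), array weights (0.0604) or control arrays alone (0.0616). Atp6v1h was lost without quadriceps control 5 or soleus control 2, 3 or 4 (0.0535 to 0.0836), with median centring (0.124) and with control arrays alone (0.0946). Ctsb was lost without quadriceps control 3 or 5 or soleus control 2 or 4 (0.0516 to 0.0733), after quantile normalization (0.105) and with control arrays alone (0.0845). Among members not called, Atp6v0d1 and Atp6v0e passed as lower without quadriceps control 6 (0.0276 and 0.00852), Atp6v0e2 without quadriceps control 4 (0.00565) and Ctsf without soleus control 6 (0.0409). Ctsr passed as higher without quadriceps control 4 or soleus control 6 (0.00877 and 0.0364). With array weights Atp6v0d1 (0.0405), Atp6v0e (0.0262) and Atp6v0e2 (0.00832) passed as lower and Ctsr (0.0077) as higher.

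**Figure D4:**
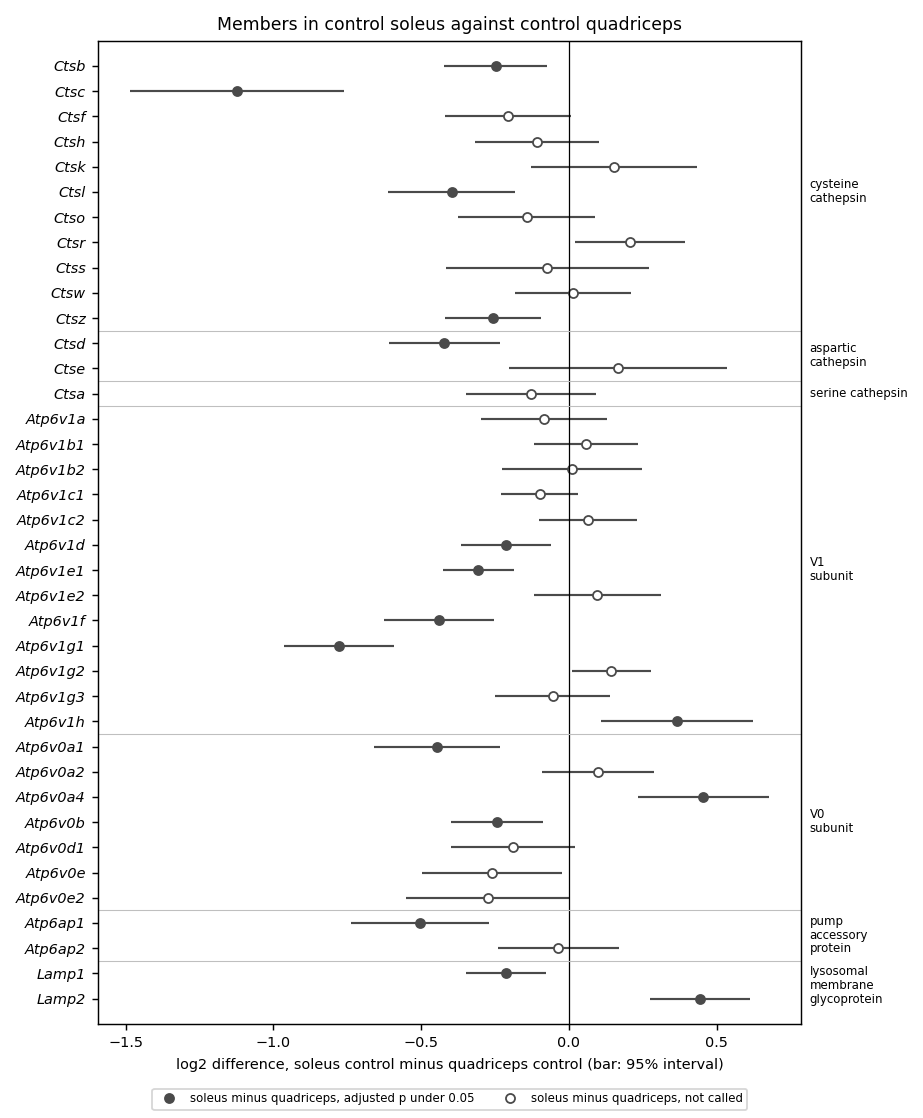
Log2 difference of each of the 38 members between control soleus and control quadriceps, with the 95% interval as a bar, filled where limma's adjusted p was under 0.05. Most filled points lie left of 0, led by Ctsc at -1.12 and Atp6v1g1 at -0.78, while Lamp2, Atp6v0a4 and Atp6v1h lie to the right.

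Set side by side, the 4 group means show where the muscles stood. For Atp6v1g1 they were 9.77 ± 0.22 in quadriceps controls, 9.13 ± 0.10 in quadriceps cKO, 8.99 ± 0.16 in soleus controls and 9.02 ± 0.10 in soleus cKO (SD, n = 6 each), so quadriceps controls stood apart from the other groups. For Lamp2 they were 9.17 ± 0.20, 9.67 ± 0.12, 9.61 ± 0.09 and 9.72 ± 0.08 in the same order, with quadriceps controls again apart, here below. For Atp6v1a the medians were 7.04, 7.97, 6.90 and 7.09, and quadriceps cKO stood apart. These comparisons share the quadriceps controls. Slow fibre markers rose in the same cKO quadriceps, 7 of 7 with a median of 1.98, next to 22.3% of all genes, and their part in these values was not tested.

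The rest of the lysosome gives the setting. Among 30 other lysosomal hydrolases 17 were higher in cKO quadriceps and 3 lower (median 0.30), next to 22.3% and 17.7% of all genes, led by Lgmn, the asparagine-cutting protease that processes cathepsins (0.80, limma adjusted p = 4.27e-08), and the sulfatase Galns (0.80). Gaa, the glucosidase that digests glycogen in muscle lysosomes, fell (-0.45, adjusted p = 5.15e-05) and is named after its values were seen. In soleus 6 were higher, next to 13.2% of all genes, and none lower by limma, with 3 lower at an unadjusted p under 0.05 (median 0.13): Galns rose by 0.99, Gusb by 0.70, Dnase2a by 0.61 and Lgmn by 0.57. Of 14 other lysosomal membrane proteins 5 rose and 3 fell in quadriceps (median 0.16) and 2 rose and 1 fell in soleus (median 0.04). Over all genes 22.3% rose and 17.7% fell in quadriceps, and 13.2% rose and 9.94% fell in soleus. Ctns, the cystine exporter, rose by 0.53 in quadriceps, and Ostm1, partner of the chloride exchanger Clcn7, fell by 0.75 there and by 0.49 in soleus.

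Pump genes whose symbols lie outside the rule were mixed in the same way. Of 10 such genes 2 rose and 2 fell in quadriceps and 2 rose and 1 fell in soleus (medians 0.05 and 0.03). These counts were near the shares of all genes, 22.3% and 17.7% in quadriceps and 13.2% and 9.94% in soleus. Tcirg1, the V0 large subunit of osteoclasts and immune cells, rose by 0.60 in both muscles (limma adjusted p = 1.13e-05 in quadriceps and 2.33e-05 in soleus). Dmxl2, of the complex that joins V1 to V0, rose by 0.53 in quadriceps. Of 17 genes of TFEB and lysosomal nutrient signalling 3 rose and 3 fell in quadriceps and 1 rose and 2 fell in soleus (medians 0.01 and -0.02), next to the same shares of all genes. Tfeb, a transcription factor of lysosomal genes, fell by 0.79 in quadriceps (adjusted p = 6.13e-08) and had -0.13 in soleus (adjusted p = 0.30). Rragd, a GTPase of that pathway, fell by 0.96 and 0.68.

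Inhibitors of cathepsins and related proteases were also followed. Of 6 kept, 3 rose and 1 fell in quadriceps and 5 rose in soleus (medians 0.52 and 0.57), where none fell, also at an unadjusted p under 0.05. Over all genes 22.3% rose and 17.7% fell in quadriceps, and 13.2% rose and 9.94% fell in soleus. Cstb, the cytosolic inhibitor cystatin B, rose by 0.65 in quadriceps and 0.67 in soleus, and Serpinb1a, an inhibitor of granule proteases, by 1.45 and 2.07. Cst6 moved in opposite directions, by -0.49 in quadriceps (limma adjusted p = 0.0159) and 0.50 in soleus (adjusted p = 0.0222), with a difference of -0.98 (adjusted p = 0.00452).

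Promoters around the starts listed in RefSeq were read for the E-box CACGTG, the core of the site that TFEB and related factors bind in lysosomal genes. RefSeq promoters of GRCm38.p6, from 250 bases before to 50 after the start, were at hand for 32 of the 43 members, and 9 of these genes (28.1%) held it, next to 8.09% of all 27025 genes with a promoter in that table. The form TCACGTGA, which contains that E-box, was in 5 of the 32 members (15.6%) and in 1.12% of all genes. The E-box preceded by GT and followed by AC was in 0 of 32 members and 0.37% of all genes. All of these read the same on both strands. A match describes letters and no binding. The listed start is not always the outer end of the gene. For Atp6v1a, Ctsa and Ctsl, which are among the 9 genes with the E-box, the whole stretch read lies inside the gene's bounds. Of the 29 members with both a promoter and a test, 9 had the E-box and 20 lacked it. Of the 9, 2 rose in quadriceps and 2 in soleus. Of the 20, 6 rose and 2 fell in quadriceps and 4 rose in soleus. Over all genes 22.3% rose and 17.7% fell in quadriceps, and 13.2% rose in soleus. Between control muscles 4 of the 9 and 7 of the 20 were lower in soleus, next to 18.3% of all genes. There 0 and 2 were higher, next to 15.2%.

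The following stretches run from 150 bases before the listed start to 20 after, with the E-box in capitals. They are shown because Atp6v0e and Atp6v1a, the pump subunits that rose most in quadriceps, carry the box. So do the abundant Lamp1 and Ctsd, which were not called in either cKO comparison. Ctss and Ctsz, which rose, have none, and neither has the accessory protein Atp6ap2, which rose by 0.64 in quadriceps and is not printed. Atp6v0e lies at chr17:26676246-26676415 (plus strand), Atp6v1a at chr16:44139240-44139409 (minus), Lamp1 at chr8:13159011-13159180 (plus), Ctsd at chr7:142387808-142387977 (minus), Ctss at chr3:95526636-95526805 (plus) and Ctsz at chr2:174439020-174439189 (minus). The stretch of Atp6v1a and its box lie inside the gene, whose outer end is at 44139702.
Atp6v0e: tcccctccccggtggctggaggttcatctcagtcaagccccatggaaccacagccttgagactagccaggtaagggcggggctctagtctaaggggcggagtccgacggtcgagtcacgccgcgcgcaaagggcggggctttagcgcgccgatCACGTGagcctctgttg
Atp6v1a: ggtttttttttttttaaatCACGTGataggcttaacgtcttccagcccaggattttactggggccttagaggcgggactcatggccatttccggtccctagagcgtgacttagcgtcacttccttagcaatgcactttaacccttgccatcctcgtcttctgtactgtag
Lamp1: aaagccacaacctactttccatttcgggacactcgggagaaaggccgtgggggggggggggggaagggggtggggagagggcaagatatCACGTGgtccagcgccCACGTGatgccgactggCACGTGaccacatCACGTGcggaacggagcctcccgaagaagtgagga
Ctsd: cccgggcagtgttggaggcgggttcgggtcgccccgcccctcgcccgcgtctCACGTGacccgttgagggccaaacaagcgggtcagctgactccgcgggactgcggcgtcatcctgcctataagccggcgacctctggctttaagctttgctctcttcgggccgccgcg
Ctss: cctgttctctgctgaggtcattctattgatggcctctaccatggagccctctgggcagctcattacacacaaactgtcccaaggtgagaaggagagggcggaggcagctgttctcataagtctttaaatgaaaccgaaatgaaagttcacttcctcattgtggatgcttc
Ctsz: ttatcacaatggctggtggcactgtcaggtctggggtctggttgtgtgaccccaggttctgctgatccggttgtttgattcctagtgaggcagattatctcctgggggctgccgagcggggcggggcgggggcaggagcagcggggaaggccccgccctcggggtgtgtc
Lamp1 held 4 boxes within these bases and was not called in either cKO comparison, with 95% intervals inside -0.20 to 0.12 in both muscles. Atp6v0e, with 1 box a few bases past its start, rose in both. Ctss, which rose most of all members in quadriceps, had none in the window. These genes were picked with their changes known, and whether the box bears on the changes was not tested.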

How the data were processed

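The authors deposited linear intensities from 1.76 to 10075 for each probe set. The submitters' processing notes name Affymetrix Expression Console, RMA and mm10, with software versions not given in the sources used here. Before any test, all values were turned to log2. Of 35557 probe sets 21789 had 1 gene symbol, 1621 several and 12147 none listed; only the first kind was used, with symbols updated through Entrez numbers (21698 matched RefSeq of GRCm38.p6). The rule found the same 43 members before and after the update. For a gene with several probe sets, the one with the highest mean was taken. Array medians lay between 4.74 and 4.94, and arrays of a group correlated between 0.963 and 0.993 across genes. Precision depends on the number of arrays: within a muscle, the standard error had a median of 0.0973 over genes.

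Groups came from sample titles. Limma 3.58.1 (R 4.3.3; lmFit, eBayes, 20 residual degrees of freedom, prior 6.52) fitted 4 group means; intervals use its moderated standard errors. On simulated arrays of 15999 genes for quadriceps cKO minus control it recovered 55 of 100 changes of 0.5 and 94 of 100 changes of 1, with 7 false calls. The simulation drew all 4 groups from the means and spreads of quadriceps controls and changed only those genes. In the data 40.0% of genes were called in quadriceps, so these figures do not give the sensitivity of the tests here. The alternatives were other scalings, filters, probe set rules, priors, array weights, separate fits, replicate blocks and leaving out each array. Deviations of same-numbered quadriceps and soleus arrays correlated from 0.16 to 0.31 in controls and from 0.22 to 0.45 in cKO. These correlations lay above 0.1 in all 6 pairs of each, so such pairs were blocked as 1 animal. For cKO 4 the labels give 40 days in quadriceps and 41 in soleus, and this pair was blocked all the same. Same-numbered arrays of different genotypes, which cannot be 1 mouse, had median correlations of 0.07 in quadriceps and 0.20 in soleus. What the number marks is therefore not settled. All members that passed the filter are named, and from each other list at most 4 called genes of smallest p per cKO comparison and its defining markers. The members, lists and comparisons were chosen with earlier results of these data known. No batch was named in the labels. Protein sequences were not used here.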

Additional observations from a re-analysis of the deposited data

Results flagged for a closer look

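In 152 sets of 6 arrays (38 members in 4 groups), 6 had 1 array farther from the others than Dixon's 95% limit for 6 values (0.625, the gap to the next value divided by the range), which is 3.95%, and chance gives about 1 in 20. Of these, 3 were quadriceps control 4, the array of lowest weight, each time the lowest of its group: Atp6v0a2 at 7.53 against a median of 8.19 in the others (ratio 0.768), Atp6v0e2 at 6.95 against 7.78 (0.666) and Atp6ap1 at 8.70 against 9.51 (0.885). Soleus control 1 was the highest for Atp6v1f, at 8.08 against 7.59 (0.923). Quadriceps control 5 was the highest for Ctsc, at 8.43 against 7.83 (0.669). Quadriceps cKO 2 was the highest for Atp6ap2, at 7.60 against 7.17 (0.772).

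Changes of 5 members differed between the muscles by the interaction term in limma, with quadriceps first: Atp6v1a rose by 0.92 against 0.19 (adjusted p = 0.00155), Atp6v1g1 had -0.65 against 0.02 (0.00107), Atp6v1h 0.48 against -0.15 (0.0190), Atp6v0a1 -0.27 against 0.25 (0.0199) and Lamp2 0.51 against 0.11 (0.0243).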

How the results depend on the processing

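Of 152 member results (38 members, 4 comparisons), 42 were called, and 31 of these stayed called under every alternative run. The other 11 are named in the report or here. Atp6v0b, Ctsz and Lamp1 between control muscles were lost after quantile normalization (adjusted p = 0.134, 0.114 and 0.0679, with limma). With control arrays alone Atp6v0b (0.0556) and Lamp1 (0.0753) were lost too, as was Lamp1 with the 75th percentile (0.0548). Of 110 not called, 25 passed under at least 1 alternative. No called result turned its direction under any alternative run.

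Counts of called members moved as follows. In quadriceps 10 to 12 were higher and 1 to 3 lower when single arrays were left out, 1 lower without control 1, 3 or 5. Lower there were 5 with the 75th percentile and 1 with quadriceps arrays alone. Over all genes 6399 were called in quadriceps as deposited and 5692 to 7240 without single arrays. With the 75th percentile these were 7138, of which 37.5% were higher, and with quadriceps arrays alone 5333. In soleus 6 to 9 were higher and 0 to 2 lower without single arrays, 1 lower without quadriceps control 4 and 2 without soleus control 1. With the 75th percentile, with quantile normalization and with array weights 1 was lower. Over all genes 3694 were called in soleus as deposited and 3235 to 4277 without single arrays. These were 3879 with the 75th percentile, 3929 with quantile normalization and 5384 with array weights. For the difference 3 to 4 were higher and 2 to 4 lower without single arrays, 4 lower without quadriceps control 6. There array weights gave 6 higher and 5 lower, the replicate block by animal 6 higher, and the replicate block with number as a fixed term 5 higher. Calls for the difference grew over all genes as well, from 1966 to 3570, 2952 and 2475 in these 3 settings. Without single arrays they were 1576 to 2856. Between control muscles 2 to 4 were higher and 11 to 14 lower without single arrays, 5 higher with the 75th percentile, 8 lower with quantile normalization, 9 lower with control arrays alone and 18 lower with median centring, where Atp6v0d1, Atp6v0e, Atp6v0e2, Atp6v1c1 and Ctsf joined (adjusted p = 0.0148 to 0.0406). Over all genes 5362 were called between control muscles as deposited (45.4% higher), and 4745 to 5759 without single arrays. Median centring gave 5372 (22.3% higher), the 75th percentile 5752 (56.2% higher), quantile normalization 5204 and control arrays alone 4055. Over 304 blocked results 11 changed side, all of them gaining a call. The median change of the members in quadriceps was -0.05 with the 75th percentile, against 0.03 as deposited. Array signal limits Atp6v1g3, Atp6v1b1, Atp6v1c2, Ctsr and Ctsw, which lay near the dim limit.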

Other observations

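Genes that sort enzymes to the lysosome were mixed. Of 10 with values 2 rose and 2 fell in quadriceps and 4 rose and 1 fell in soleus (medians -0.04 and 0.06). Over all genes 22.3% rose and 17.7% fell in quadriceps, and 13.2% rose and 9.94% fell in soleus. Igf2r, the receptor that carries newly made hydrolases by their mannose 6-phosphate tag, rose by 0.84 in quadriceps (limma adjusted p = 1.84e-06) and 0.99 in soleus (adjusted p = 3.34e-07), and Gga2, an adaptor for that receptor, by 0.91 and 1.04. Sort1, sortilin, a second sorting receptor, had means of 8.78 in quadriceps controls, 8.88 in quadriceps cKO, 6.81 in soleus controls and 8.18 in soleus cKO. It rose by 1.37 in soleus (adjusted p = 4.13e-09) against 0.10 in quadriceps (adjusted p = 0.552), with a difference of -1.27 (adjusted p = 2.38e-05), and was 1.97 lower on the log2 scale in control soleus than in control quadriceps.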
